A study of Mus musculus with 2 samples.

Results

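The hearts of mouse embryos at 12.5 days held all 5 microRNA genes examined here, which lie at imprinted loci: Mir335 (Mest), Mir483 (Igf2), Mir675 (H19), and Mir296 and Mir298 (Gnas locus). They were picked by gene symbol, by a rule that used no counts, although earlier results of these data were known, and are 5 of the 1973 microRNA gene rows in each table. MicroRNA-sized RNA was sequenced from whole heart of strain B6NCrl embryos, of both sexes pooled, as 2 replicates with 1 library each. These formed 1 group with no treatment and no second genotype, so no contrast between conditions could be made and the spread is that between 2 pooled-sex tissue samples. The libraries held 4478599 and 5279908 counts on the annotated strand of microRNA genes (sense counts) in replicates 1 and 2. Levels are given as CPM, counts scaled by that sum in the usual way, on which 3 counts, the limit that a count of 0 allows, are worth 0.670 and 0.568 CPM. Intervals and limits cover counting error only.

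Imprinted genes are expressed mainly or only from the copy inherited from one parent, and many of them regulate growth of the embryo and placenta. Mest and Igf2, which encode a hydrolase-like protein and a fetal growth factor, are expressed from the paternal copy, and the noncoding RNA H19 from the maternal copy. The Gnas locus gives rise to several overlapping transcripts with different parental patterns. A microRNA is cut from a hairpin in such a transcript, and either arm of the hairpin can become the mature strand, whose seed (bases 2 to 8) pairs with target messenger RNAs. The tables count reads per hairpin gene, so they tell apart neither the 2 arms nor the parental copies.

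The mature strands are shown because the seed sets which targets a microRNA can pair with. They are from RefSeq on GRCm38.p6, 5′ to 3′, with the seed in capitals, and all 5 genes had both arms there.
miR-335-5p: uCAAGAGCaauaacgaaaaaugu
miR-335-3p: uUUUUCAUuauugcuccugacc
miR-483-5p: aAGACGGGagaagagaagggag
miR-483-3p: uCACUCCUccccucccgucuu
miR-298-5p: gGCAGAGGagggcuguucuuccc
miR-298-3p: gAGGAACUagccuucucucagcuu
miR-296-5p: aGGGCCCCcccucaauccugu
miR-296-3p: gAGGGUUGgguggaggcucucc
miR-675-5p: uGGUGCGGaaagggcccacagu
miR-675-3p: cUGUAUGCccuaaccgcucagu

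The 10 arms had 10 different seeds, so the genes share a kind of locus and not a seed family. No other gene in the RefSeq table had any of these seeds. Among all 1738 mature sequences of that table, 68.0% had a seed found in no other gene, so a seed of its own is the common state. With the shorter stretch of bases 2 to 7, 4 arms had 1 partner each. Of these partners, Mir5621 (shared with miR-296-5p) had 0 and 0.758 CPM in replicates 1 and 2, a mean of 0.379 CPM. Mir6986 (miR-335-3p) had a mean of 0.206 CPM and Mir3110 (miR-483-3p) one of 0.189 CPM. The partner of miR-335-5p, Mir7646, was not found in the tables by symbol.

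The hairpins are printed to show where the arms lie and how the genes differ in base composition. Capitals mark the 2 mature arms, and the sequences, from RefSeq on GRCm38.p6, were identical to the GENCODE M21 transcripts of all 5 genes.
Mir335: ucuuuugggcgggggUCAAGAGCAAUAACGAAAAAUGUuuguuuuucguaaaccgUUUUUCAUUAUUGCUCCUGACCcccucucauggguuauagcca
Mir483: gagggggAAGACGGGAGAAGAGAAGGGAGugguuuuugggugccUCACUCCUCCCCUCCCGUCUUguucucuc
Mir298: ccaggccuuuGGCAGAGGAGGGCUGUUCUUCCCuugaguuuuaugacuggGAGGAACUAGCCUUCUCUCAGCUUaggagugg
Mir296: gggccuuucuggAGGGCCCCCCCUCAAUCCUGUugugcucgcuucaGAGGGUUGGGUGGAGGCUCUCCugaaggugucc
Mir675: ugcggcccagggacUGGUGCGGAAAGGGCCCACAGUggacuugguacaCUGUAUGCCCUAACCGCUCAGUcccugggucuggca

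Mir335 was the A- and U-rich hairpin of the set, with a G and C content of 42.9%, against 53.7% for Mir298, 58.9% for Mir483, 63.1% for Mir675 and 63.3% for Mir296. The median over 997 distinct mouse hairpins in the table was 51.7%. Its arms were also lowest, at 30.4% for miR-335-5p and 36.4% for miR-335-3p, while the arms of the other genes ranged from 50% (miR-298-3p) to 68.2% (miR-296-3p). The predicted folding energy per base was −0.45 kcal/mol for Mir335, −0.46 for Mir483, −0.52 for Mir298, −0.55 for Mir296 and −0.67 for Mir675, where the median hairpin had −0.41. Mir675 thus had the most stable predicted fold of the 5, and 97.7% of all hairpins had a weaker one. No stretch of 18 bases of any arm occurred in a GENCODE M21 transcript of another gene, on either strand, except that both miR-675 arms lie within H19, their own host. The genome outside transcripts was not searched. This bears on the counts because a read with several matches was assigned to no gene.

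On chromosome 6 of mm10, Mir335 (ENSMUSG00000065501.1) spans bases 30741299 to 30741396 of the plus strand, in an intron of all 7 Mest transcripts that span it. On chromosome 7, Mir483 (ENSMUSG00000070140.1) spans bases 142654924 to 142654996 of the minus strand, in an intron of all 7 Igf2 transcripts that span it. It also falls inside Gm49394, a coding gene annotated over Igf2 on the same strand. Mir675 (ENSMUSG00000076275.1), from 142577064 to 142577147 on the same strand of chromosome 7, overlaps an exon in 3 of the 4 H19 transcripts that span it and an intron in the other. It is separated from Mir483 by 77776 bases. Mir296 (ENSMUSG00000065521.1) and Mir298 (ENSMUSG00000065410.1) lie on the minus strand of chromosome 2, from 174267047 to 174267125 and from 174267504 to 174267585, with 378 bases between them. Neither is inside another gene of GENCODE M21. They lie 13651 bases beyond the annotated end of Nespas, the antisense transcript of the Gnas locus, on the same strand as Nespas, and Gnas itself runs on the opposite strand.

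**Figure D1:**
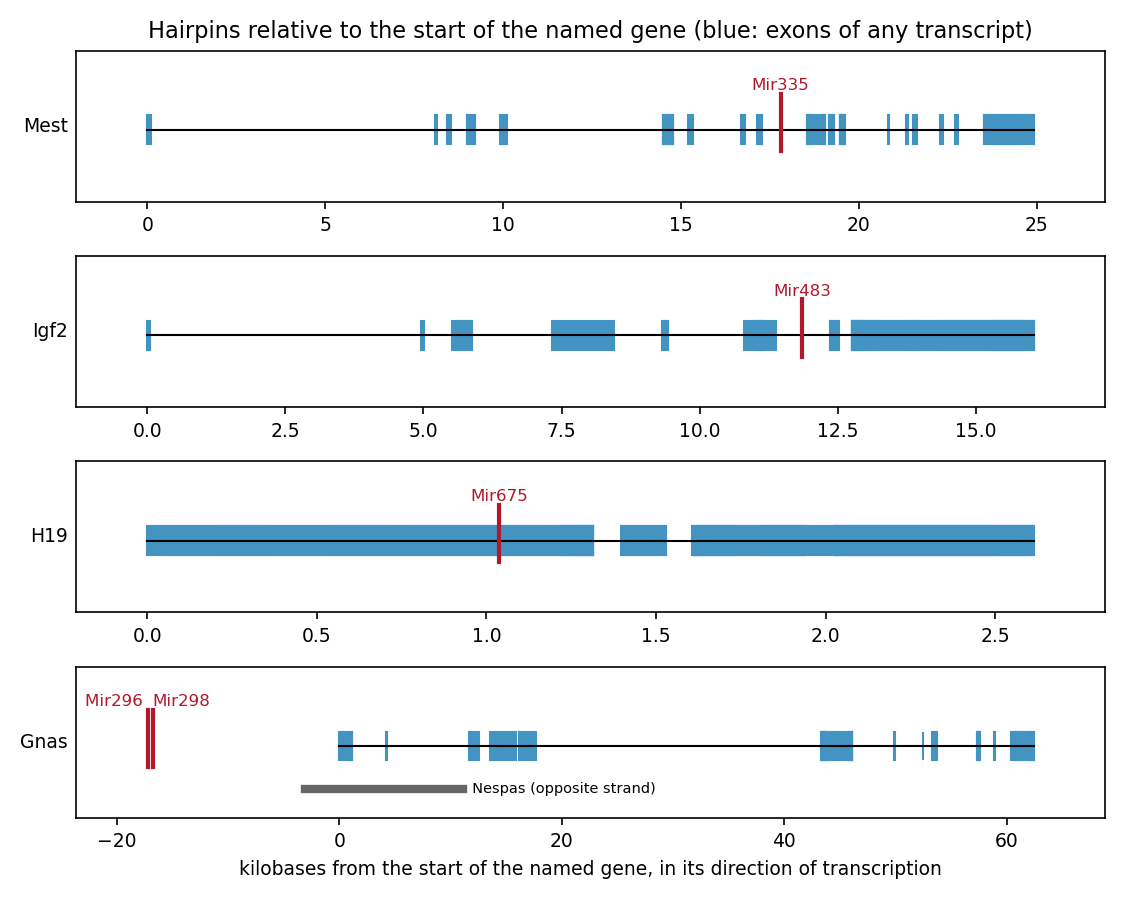
Positions of the 5 hairpins (red) along 4 loci, in kilobases from the start of the named gene in its direction of transcription, with exons of any GENCODE M21 transcript in blue. The red lines mark positions and are not to scale in width. Mir335 and Mir483 lie between exons and Mir675 over an exon, whereas Mir296 and Mir298 lie upstream of Gnas, beyond the end of Nespas (grey, opposite strand).

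Among microRNAs of heart muscle, those of the myosin genes were abundant. These 3, Mir208a, Mir208b and Mir499, summed to 63958 and 61924 CPM. The muscle genes Mir1a-1, Mir133a-1 and Mir133a-2, added after their values were seen, had means of only 3.60, 1.68 and 0.981 CPM. They have near-identical copies, so reads shared between copies are missing from their counts. Of the markers of other cell types, the endothelial Mir126a (67024 and 68770 CPM) and the smooth muscle Mir143 (87662 and 89222 CPM) were high as well. The other smooth muscle marker, Mir145a, stood far lower, at 1130 and 1277 CPM. Neural markers summed to 2.01 and 0.947 CPM, with Mir124a-2, Mir124a-3 and Mir9-2 at 0 in both libraries. A further neural marker, Mir9-1, was not found by symbol and is not in the sum. The neural genes have several copies too, with the same limit. Epithelial, white blood cell and skeletal muscle markers summed to 639 and 603, 309.9 and 322, and 34.6 and 28.4 CPM. The hepatocyte microRNA Mir122 stood at 181 and 32.4 CPM in replicates 1 and 2. The erythroid markers summed to 926 and 1811 CPM, with Mir451a at 769.7 and 1671 CPM and Mir144 at 156 and 139.8 CPM, so Mir144 did not share the direction of Mir451a.

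Among the hosts' microRNAs, the one from the Mest intron stood far above the others. Mir335, which has been studied in cell migration and differentiation, had 533936 counts in replicate 1 and 673203 in replicate 2, or 119219 CPM (95% exact binomial interval 118919 to 119520) and 127503 CPM (127218 to 127788). It held the first place among all genes in both libraries, by reads assigned to a single gene. Multiply mapping reads, 27.1% and 25.3% of all reads, were left out, so microRNAs with near-identical copies may be ranked too low. The mean of Mir335 was 123361 ± 5857 CPM (SD, n = 2), so the spread between replicates was many times the counting error.

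The microRNA of the Igf2 intron was the second of the set. Mir483 had 20995 and 25571 counts, or 4688 CPM (95% exact binomial interval 4625 to 4752) and 4843 CPM (4784 to 4903), and stood at positions 32 and 31. The mean was 4765 ± 109.8 CPM (SD, n = 2). Within each library Mir335 exceeded Mir483 by a ratio of 25.9 ± 0.633 (SD, n = 2), and by 19.3 ± 0.472 (SD, n = 2) per base of hairpin, since the Mir335 hairpin has 98 bases and that of Mir483 has 73.

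The pair from the Gnas locus stood next and close together. Mir298 had 12139 and 14559 counts, or 2710.4 CPM (95% exact binomial interval 2662 to 2759) and 2757 CPM (2713 to 2803). Mir296, which is also known from endothelial cells, had 12252 and 13393 counts, or 2736 CPM (95% exact binomial interval 2688 to 2784) and 2537 CPM (2494 to 2579.9). Their order turned between the libraries: Mir296 was slightly higher in replicate 1, where the intervals overlap, and Mir298 was higher in replicate 2, where they do not.

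The ratio of Mir298 to Mir296 was 0.991 in replicate 1 and 1.09 in replicate 2, a mean of 1.04 ± 0.0681 (SD, n = 2), or 1.001 ± 0.0656 (SD, n = 2) per base of hairpin. The means were 2734 ± 33.2 and 2636 ± 141 CPM (SD, n = 2), a difference below the SD of Mir296 but above that of Mir298. Mir483 exceeded Mir298 by a ratio of 1.74 ± 0.0190 (SD, n = 2), or 1.96 ± 0.0213 (SD, n = 2) per base of hairpin, which was many times the spread.

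The microRNA of H19 was the lowest of the 5. Mir675, whose host is among the abundant noncoding RNAs of fetal tissues, had 1241 and 1450 counts, or 277 CPM (95% exact binomial interval 262 to 293) and 275 CPM (261 to 289), with a mean of 276 ± 1.75 CPM (SD, n = 2). It stood at positions 130 and 128. Mir296 exceeded it by a ratio of 9.55 ± 0.450 (SD, n = 2), or 10.2 ± 0.478 (SD, n = 2) per base of hairpin. Mir483, from the neighbouring and oppositely imprinted Igf2, exceeded Mir675 by a ratio of 17.3 ± 0.507 (SD, n = 2), and Mir335 exceeded it by 447 ± 24.1 (SD, n = 2). With 2 libraries no permutation test of these ratios can reach 0.05, so they are given with their spread alone. That spread leaves out any bias between genes that recurs in both libraries, so these and the later ratios compare reads, not molecules. How evenly different microRNAs were captured was not measured.

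**Figure D2:**
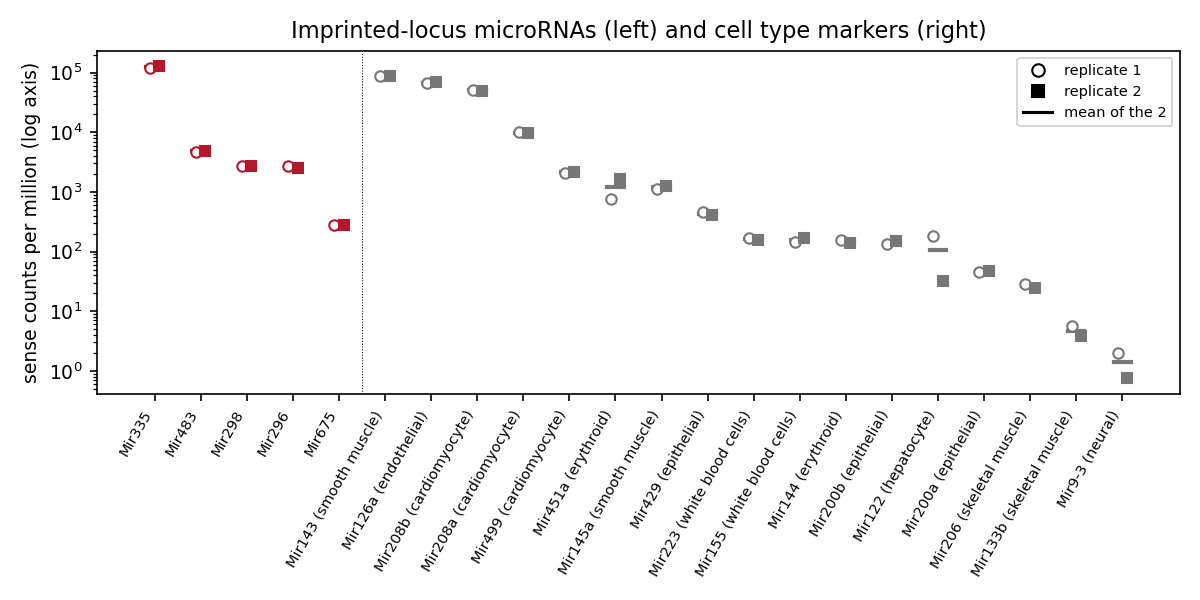
Sense CPM on a log axis in replicate 1 (open circles) and replicate 2 (filled squares) with their mean (line), for the 5 imprinted-locus genes (red) and for cell type markers with a mean above 1 CPM (grey). Mir335 lies above every marker shown, Mir296 and Mir298 overlap, and Mir675 stands at 277 and 275 CPM. The libraries lie furthest apart for Mir122, Mir9-3 (2.01 and 0.758 CPM) and Mir451a.

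Set against microRNAs of the heart muscle, the 5 genes spanned the whole range of abundant and moderate levels. Mir335 exceeded Mir208b, which lies in a myosin heavy chain gene, by a ratio of 2.42 ± 0.178 (SD, n = 2), or 1.91 ± 0.140 (SD, n = 2) per base of hairpin. Mir483 lay below the other cardiac myosin microRNA, Mir208a, which exceeded it by a ratio of 2.08 ± 0.0813 (SD, n = 2), or 1.83 ± 0.0715 (SD, n = 2) per base of hairpin. Mir298 and Mir296 exceeded Mir499 by ratios of 1.28 ± 0.00488 and 1.23 ± 0.0855 (SD, n = 2), and by 1.23 ± 0.00470 and 1.23 ± 0.0855 (SD, n = 2) per base of hairpin. Mir675 lay below Mir499, which exceeded it by a ratio of 7.75 ± 0.173 (SD, n = 2), or 8.24 ± 0.184 (SD, n = 2) per base of hairpin.

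The genes nearest in level were found by the summed absolute difference of log2(CPM + 1) over the 2 libraries. Mir335 had no close neighbour: the nearest were Mir143 at a summed difference of 0.96, Mir322 at 1.17 and Mir99a at 1.504. Its lead over Mir143 was a ratio of 1.39 ± 0.0488 (SD, n = 2). Per base of hairpin the ratio fell to 0.896 ± 0.0314 (SD, n = 2), because the Mir143 hairpin is annotated with 63 bases. This change comes from the annotated hairpin lengths and not from the reads. Mir483 was nearest to Mir423 (0.04), Mir106b (0.12) and Mir151 (0.14), and Mir675 to Mir215 (0.043), Mirlet7f-2 (0.044) and Mir186 (0.062). Mirlet7f-2 has near-identical copies, so its own level is uncertain. Mir296 was nearest to Mir149 (0.07), Mir1983 (0.08) and Mir542 (0.10). Mir298 was nearest to Mir542 (0.11), to Mir296 (0.13) and to Mir503 (0.17). With 2 libraries such nearness says that the levels were alike and nothing about how the genes vary across tissues.

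**Figure D3:**
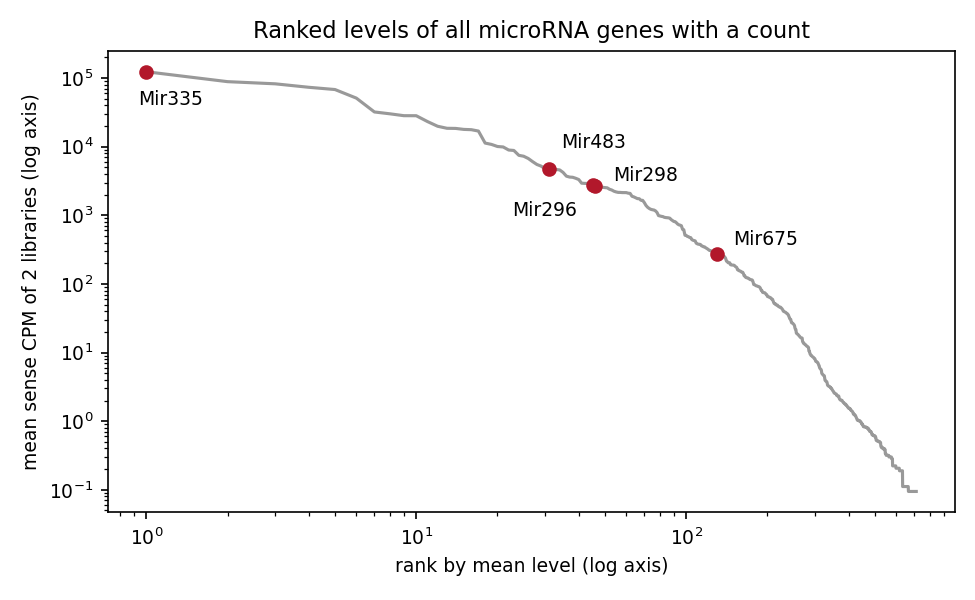
Mean sense CPM of the 2 libraries against rank, both on log axes, for the 712 genes with a count (grey line), with the 5 imprinted-locus genes in red. Mir335 opens the curve, Mir483, Mir298 and Mir296 lie at positions 31, 45 and 46, and Mir675 at 130.

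Together the 5 genes took 13.4% ± 0.586 (SD, n = 2) of all sense counts, 13.0% and 13.8% in replicates 1 and 2. Mir335 supplied 92.2% ± 0.341 (SD, n = 2) of that share. The other 4 genes summed to 1.04% in each library, since Mir483 and Mir298 were higher in replicate 2 by about as much as Mir296 was lower. Within 50 kb of Mest, Igf2, H19, Gnas or Nespas the tables held 1 further microRNA gene, Gm27591, on chromosome 2 from 174247928 to 174247995, and it had 0 counts in both libraries.

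Other microRNAs, of imprinted regions or with Mir344 symbols, were compared by lists taken from the annotation, limited to genes among the 1973 gene rows. Imprinting of the Mir344 genes was not checked. The region between Dlk1 and Dio3 on chromosome 12, with a large maternally expressed microRNA cluster, held 59 genes, of which 42 reached 10 CPM in both libraries. The 59 genes summed to 4.93% ± 0.171 (SD, n = 2) of sense counts, or 5.48% with counts without regard to strand. By sense counts, Mir335 alone exceeded their sum by a ratio of 2.50 ± 0.205 (SD, n = 2). Multiply mapping reads are missing from this sum too. The highest genes there were Mir487b at 7466 ± 814 CPM (SD, n = 2) and Mir411 at 6721 ± 319 CPM (SD, n = 2). Of the 59 genes, 4 stood above Mir483, 6 above Mir296 and 22 above Mir675. The median was 97.9 CPM over these 59 genes and 185 CPM over the 51 of them with a count, beside 2734 CPM over the 5 genes of the Mest, Igf2, H19 and Gnas loci and 2.53 CPM over all 712 genes with a count.

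The Sfmbt2 gene, paternally expressed and host of a large rodent microRNA cluster, held 107 genes, of which 7 reached 10 CPM in both libraries. They summed to 0.321% ± 0.0111 (SD, n = 2), and Mir335 exceeded that sum by a ratio of 38.4 ± 3.15 (SD, n = 2). The highest were Mir467d at 957 ± 16.7 CPM and Mir467c at 922 ± 45.5 CPM (SD, n = 2). Of this list 0 genes stood above Mir296 and 3 above Mir675. Many genes of the cluster are near-identical, so reads shared between them are missing from this sum. Among 13 genes with Mir344 symbols, 5 had a count, with 5 and 6 counts in all, Mir344b being highest at 1 and 3 counts, followed by Mir344e and Mir344g, level at 2 and 0 counts each.

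**Figure D4:**
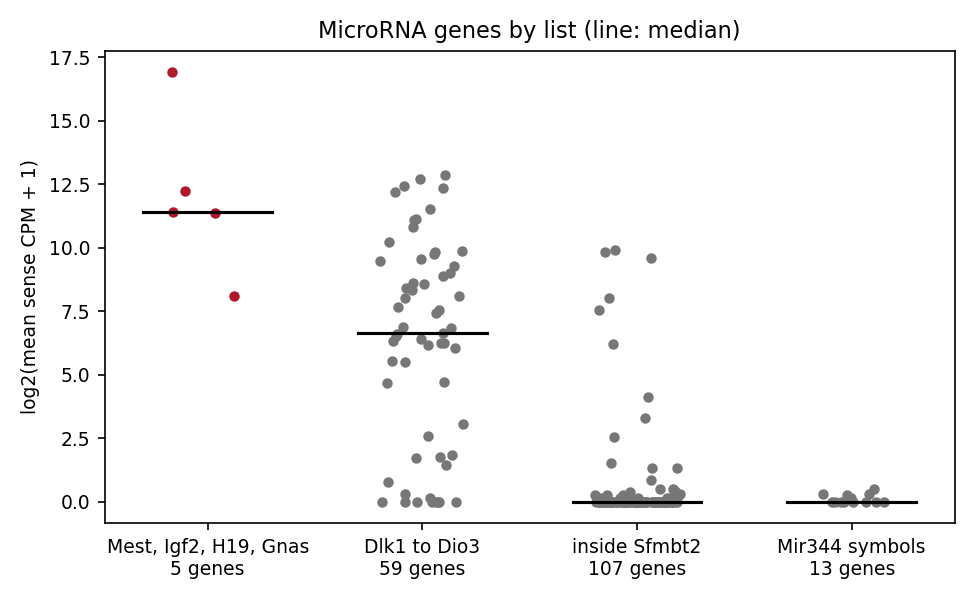
Level of each gene, as log2(mean sense CPM + 1), by list, with the median of each list as a line and points spread sideways for legibility. The 5 genes of the Mest, Igf2, H19 and Gnas loci all lie above 275 CPM, the Dlk1 to Dio3 genes reach from 0 to 7466 CPM, and most Sfmbt2 and all Mir344 genes lie near 0.

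The 2 libraries matched closely for these genes. An exact two-sided binomial test set the 2 counts of a gene against the split expected from TMM-scaled library sizes, with Benjamini-Hochberg adjustment over 712 genes. It asks whether a ratio between libraries exceeds counting error. The test compares these 2 libraries and not conditions. Of all genes tested, 0.421% passed an adjusted p of 0.05 with at least a 2-fold ratio, and 0 of the 5 genes did. At any ratio 16.0% passed (8.99% higher and 7.02% lower in replicate 2), among them 3 of the 5 genes. The test detects smaller ratios at genes with more counts. The 5 genes had a median of 2734 CPM, beside 2.53 CPM over the 712 genes, so 3 of 5 and 16.0% are not comparable.

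Mir335 was higher in replicate 2 by a ratio of 1.08 (95% counting interval 1.08 to 1.09, log2 ratio 0.12), with a p too small for the software to hold. Mir483 was higher in replicate 2 by a ratio of 1.05 (1.03 to 1.07, adjusted p = 6.16e-06, exact binomial test). Mir296 was lower, at a ratio of 0.940 (0.918 to 0.964, adjusted p = 1.06e-05, exact binomial test). Mir298, its neighbour, did not pass, at a ratio of 1.03 (1.01 to 1.06, adjusted p = 0.0655, exact binomial test), and Mir675 had a ratio of 1.01 (0.931 to 1.09, adjusted p = 1, exact binomial test). The direction of Mir675 turned with the scaling, to a log2 ratio of −0.004 with DESeq2 size factors. With edgeR's exact test, whose dispersion came from these same 2 libraries, 0 of the 5 genes passed, each with an adjusted p of 1, and 0 had an unadjusted p under 0.05.

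The largest of these differences, 1.08-fold for Mir335, was small beside those of Mir122, at a ratio of 0.182 (95% counting interval 0.153 to 0.215), and Mir451a, at 2.20 (2.12 to 2.29). The part of liver or blood cells in the levels of the 5 genes was not tested. In the other lists, 5 of 51 Dlk1 to Dio3 genes with a count were higher and 15 lower in replicate 2 at any ratio. Over all genes tested the shares were 8.99% and 7.02%. Of 30 Sfmbt2 genes and 5 Mir344 genes with a count, 0 passed the exact binomial test, and 1 and 0 had an unadjusted p under 0.05. Genes with few counts can hardly pass this test. Among genes with a count, medians were 185 CPM for Dlk1 to Dio3, 0.365 CPM for Sfmbt2 and 0.223 CPM for Mir344. The numbers of passing genes are thus not comparable between the lists. By edgeR's exact test 0 genes of the 3 lists passed. By the median log2 ratio, the Dlk1 to Dio3 genes stood at −0.04 (49 genes with counts in both libraries), the 5 genes at 0.05, and all genes at 0.01.

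**Figure D5:**
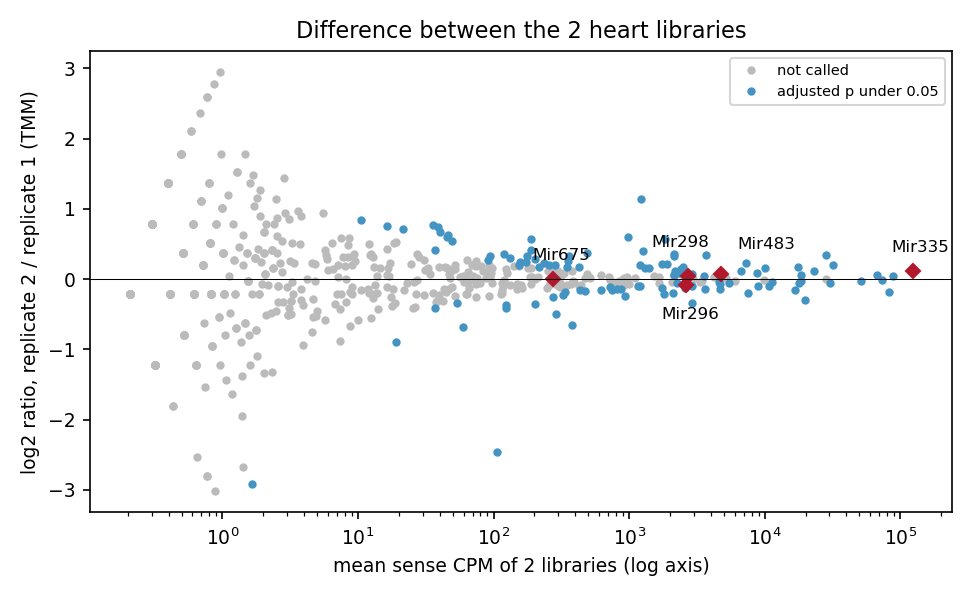
Log2 ratio of replicate 2 to replicate 1, scaled by TMM, against mean sense CPM on a log axis, for genes with a count in both libraries (blue where the adjusted p of the exact binomial test is under 0.05), with the 5 imprinted-locus genes as red diamonds. All 5 diamonds lie between −0.09 and 0.12, near the line of equal levels.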

How the data were processed

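The authors deposited, for each of 2 heart libraries, a table of raw counts of reads per microRNA gene on mm10 with annotation M4, per the file headers and the text deposited with them. Which aligner and counter they used is not stated in these sources. The 3 count columns have no names. From their values they were read as counts without regard to strand, sense and antisense, and the sense column was used. The 4 rows without a gene entered neither totals nor tests. Multiply mapping reads were 27.1% and 25.3% of all reads in replicates 1 and 2 and unmapped reads 18.1% and 19.1%. At the 5 genes, antisense counts totalled 2 and 1, all at Mir335.

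Symbols and positions came from GENCODE M21, which named 1894 of 1973 rows, and sequences from RefSeq on GRCm38.p6. Scaling used TMM (edgeR 4.0.16, R 4.3.3), with DESeq2 1.42.0 as an alternative. Folding energies came from RNAfold 2.7.2. Other steps used Python 3.11.15 with pandas 2.3.3, scipy 1.17.1 and matplotlib 3.10.9. The tests were tried first on simulated counts. The genes, lists and tests were chosen with earlier results of these data known. Named were the 5 genes, the 3 nearest in level to each, the 2 highest of each list, seed partners and cell type markers. Nothing in the labels says whether the samples share embryos, so the spread may be partly technical.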

Additional observations from a re-analysis of the deposited data

How the results depend on the processing

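The order of Mir335, Mir483, the Gnas pair and Mir675 was the same under every alternative tried, and values moved mainly with the denominator. The Dlk1-Dio3 share, by contrast, rose from 4.93% to 5.48% when antisense counts were added, while the other shares fell. Scaled to all reads in place of sense counts, the CPM means were 60658 for Mir335, 2343 for Mir483, 1344 for Mir298, 1295 for Mir296 and 136 for Mir675, and the shares were 6.58% for the 5 genes, 2.42% for Dlk1-Dio3, 0.158% for Sfmbt2 and 5.54e-05% for Mir344. Without Mir335 in the denominator, an alternative chosen after seeing the data, Mir483 stood at 5437, Mir298 at 3119, Mir296 at 3007 and Mir675 at 315 CPM. With counts without regard to strand, Mir483 stood at 4557, Mir298 at 2614 and Mir675 at 264 CPM, and the shares were 12.8%, 5.48% (Dlk1-Dio3), 0.307% (Sfmbt2) and 0.000108% (Mir344). Per kilobase of hairpin, log2 ratios were 4.27 for Mir335 to Mir483, 0.97 for Mir483 to Mir298 and 3.34 for Mir296 to Mir675, against 4.69, 0.80 and 3.26. Seed partners numbered 4 with bases 2 to 7, also chosen after seeing the data, against 0.

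Between the libraries, genes passing at any ratio numbered 114, and 2 with the edgeR exact test. That test adds a spread estimated from these same 2 libraries, so the differences under test also set that spread. With it, Mir335, Mir483 and Mir296 did not pass, at log2 ratios of 0.117, 0.0674 and −0.0886, which is no independent evidence on them. Mir298 passed among genes with at least 10 counts (0.0452, adjusted p = 0.0409, exact binomial test) and without regard to strand (0.0545, adjusted p = 0.0139, exact binomial test). The log2 ratio of Mir675 turned to −0.0042 with DESeq2 size factors and −0.013 with library totals, at an adjusted p of 1 in each. No paired analysis was possible because the 2 libraries form 1 group.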
